A study of Mus musculus with 4 samples.

Results

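The proteasome genes of mouse pancreatic islets are described here. They are the genes that encode the subunits of the proteasome, its activators, its inhibitor and the chaperones that assemble it, and they were chosen by name, as every symbol that starts with Psma to Psmg and goes on with a digit. Among 23235 symbols, 49 matched, and 47 of these had a valid value in each library and a mean of at least 1 FPKM (fragments scaled to transcript length and library size) and were kept, out of 11953 genes that met these conditions. The lowest member kept was Psmc3ip, at a mean of 3.08 FPKM. The matches left out were Psma8, a testis form of an alpha subunit, at a mean of 0.0535 FPKM, and Psmb11, the catalytic subunit of the thymus, at 0.00566 FPKM. Psmc3ip matches by name alone: it encodes a cofactor of meiotic recombination, so 46 of the 47 members are proteasome genes.

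The RNA came from islets isolated from C57BL/6 mice that were wild type (WT) or carried the mutation named KR. Mice of each genotype were fasted, and the refed group then ate for 6 h; for the length of the fast the titles state 48 h and the extraction protocol 24 h. Each of the 4 combinations is 1 library, made from pooled islets of 3 mice per genotype, per the labels, which give neither age nor sex, so values of 2 libraries can be set side by side but not checked against replicates. From what is known of this work, KR mice carry a FoxO1 whose acetylated lysines are changed to arginine, in all tissues, and the study asked how FoxO1 deacetylation bears on fuel use and insulin secretion in beta cells.

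Refed libraries were shallower: with fasted WT as 1, depth was 1.01 for fasted KR, 0.682 for refed WT, and 0.418 for refed KR. Hormone genes of islet cells were abundant everywhere, from 2652 FPKM for Sst (somatostatin) in fasted WT to 66975 for Iapp (the amyloid peptide of beta cells) in refed KR. Of the 5 measured, Ins1 and Iapp were higher in KR, by 1.34 and 0.36 on the log2(FPKM + 1) scale, and Iapp and Ppy rose with refeeding.

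The proteasome is the protease that degrades proteins tagged with ubiquitin. Its core particle is a barrel of outer alpha rings, which control entry, and inner beta rings, where Psmb5, Psmb6 and Psmb7 carry the active sites. Cells exposed to interferon build Psmb8, Psmb9 and Psmb10 in their place, which gives the immunoproteasome and changes the peptides offered to T cells. A regulatory cap binds the ends of the barrel: its ATPases (Psmc genes) unfold the substrate, and its other subunits (Psmd genes) bind ubiquitin, remove it and hold the cap together. Islet beta cells make large amounts of secretory protein and depend on this system to clear what misfolds.

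Where 4 values are given, the fasted pair comes first and the refed pair last, with WT before KR in each. The highest member was Psmb4, a structural subunit of the beta ring on chromosome 3 at 94688246 to 94690880 (build mm9), at 225, 224, 347 and 325 FPKM. Within the alpha ring, whose 7 subunits enter the particle in equal number, mean levels ran over a 7.84-fold range, from Psma7 at 225 down to Psma5 at 28.7 FPKM. The ATPases of the cap lay closer together, within a 1.79-fold range. Transcripts of subunits that the particle holds in equal number were therefore not at equal FPKM.

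**Figure D1:**
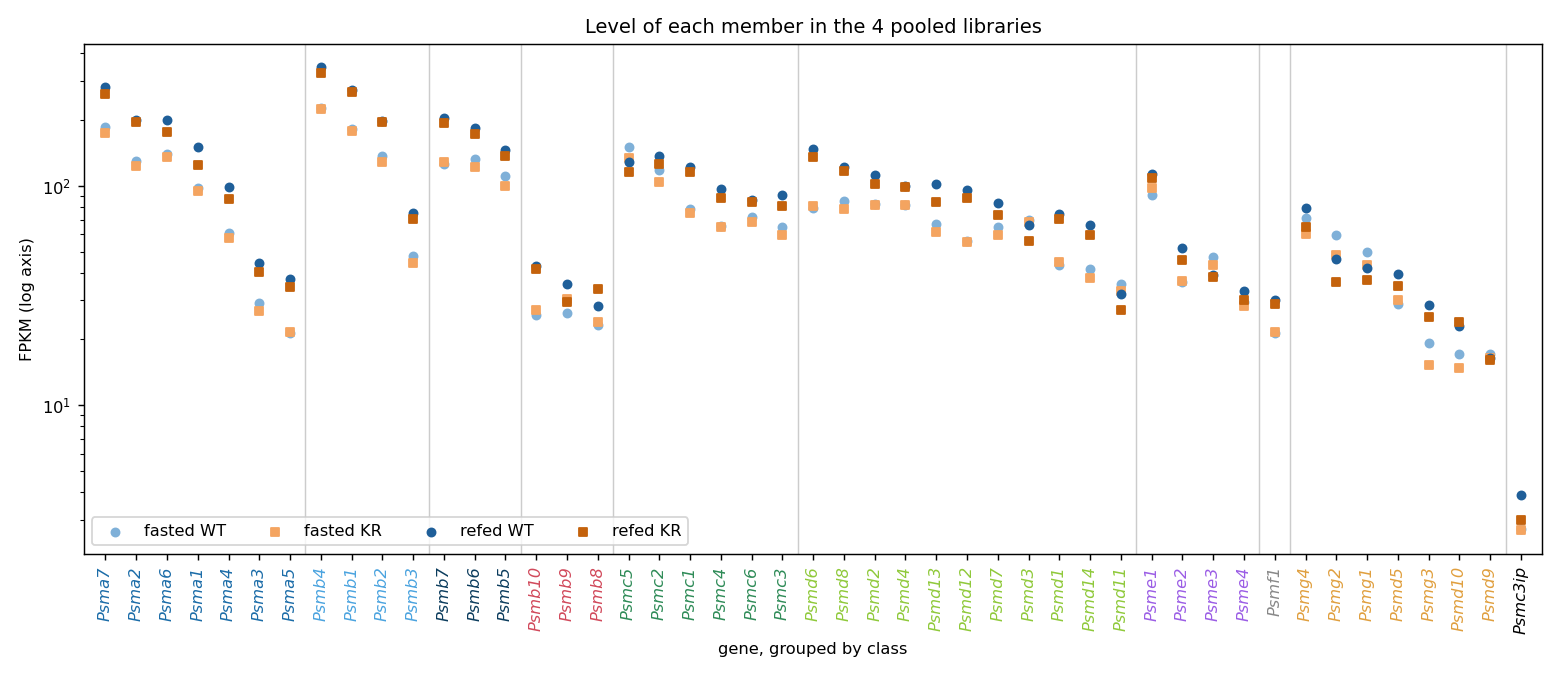
FPKM of each of the 47 members on a log axis, 1 point per pooled library, grouped by class and ordered by mean level within a class; circles are WT (blue) and squares KR (orange), light is fasted and dark refed. In the alpha and beta rings the dark points lie above the light ones for every gene but Psmb9, from Psma5 at 21.3 to Psmb4 at 347 FPKM.

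Most proteasome genes were higher after refeeding. Of the 47 members, 36 rose, 5 fell and 6 did not pass the test, while 27.7% of all genes tested rose and 29.2% fell. Thus 41 members passed in either direction (56.9% of all genes), and 42 had an unadjusted p under 0.05 (62.3% of all genes). The median fitted change of the members was 0.46 on the log2(FPKM + 1) scale, beside -0.01 over all genes. The test is limma's, with a Benjamini-Hochberg adjusted p under 0.05, on the change shared by both genotypes, and errors are its moderated standard errors over the 4 libraries. With 1 library per group, these errors rest on how far the WT and KR responses differ and on a prior taken from all genes. The p-values therefore measure no spread between like libraries. With no filter on low values the test called 0 of 23046 genes in this contrast, and therefore 0 members.

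In the WT pair alone 40 of 47 members were higher after refeeding (50.5% of all genes) and 7 lower (49.4%), with 16 higher by at least 1.5-fold (6.89% of all genes). In the KR pair 39 were higher (47.7% of all genes) and 8 lower (52.2%), with 14 higher by at least 1.5-fold (4.67% of all genes). No member was at least 1.5-fold lower in either pair, where 9.22% and 8.23% of all genes were. Both refed libraries lay above both fasted ones for 38 members (36.9% of all genes) and below both for 6 (38.8% of all genes).

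**Figure D2:**
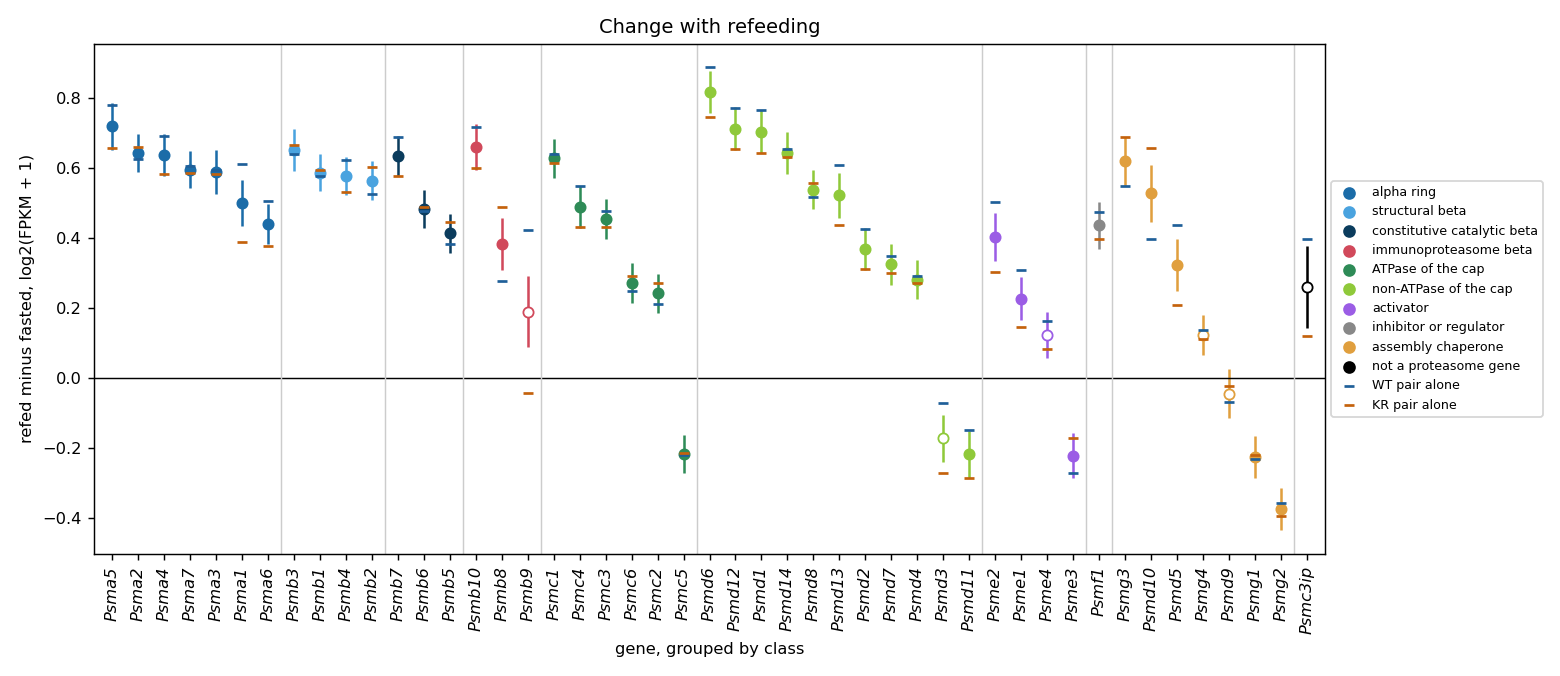
Fitted change with refeeding on the log2(FPKM + 1) scale (points, with moderated SE) for each member by class; filled points passed the test, open points did not, and dashes give the WT (blue) and KR (orange) pairs alone. All 14 constitutive core genes lie at 0.42 or higher, and 5 genes below 0 are filled, down to Psmg2 at -0.37.

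Over the whole table the change with feeding differed by transcript length. Among the 2388 genes of the shortest quintile (by the fragments behind each unit of FPKM, a measure of length), 48.5% rose and 14.6% fell with refeeding, whereas 14.0% rose and 40.9% fell among the longest quintile. The members are mostly short: 29 lay in the shortest quintile, of which 23 rose and 3 fell, and 12 in the next, of which 10 rose and 1 fell. The median change in the shortest quintile was 0.50 for the members and 0.20 for all genes, and in the next quintile 0.39 and 0.05. Markers of other cells moved with feeding as well. Of 10 endothelial genes listed 7 were tested, of which 5 fell and 1 rose. The 10 genes summed to 36.8, 26.6, 23.2 and 20.3 FPKM. Among 17 genes of macrophages and antigen presenting cells 7 fell and 2 rose, with sums of 552, 584, 498 and 516. Of all genes tested 29.2% fell and 27.7% rose. The part of transcript length or of other cells in the rise of the proteasome genes was not tested, and in pooled islets fewer cells of a type and less RNA per cell cannot be told apart.

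**Figure D3:**
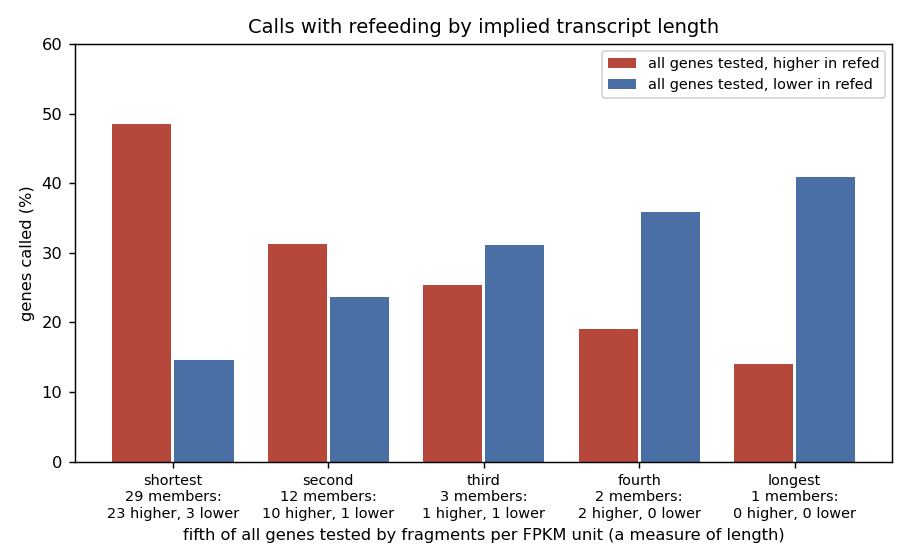
Percent of all genes tested that rose (red) or fell (blue) with refeeding, by quintile of implied transcript length, with the members of each quintile counted under the axis. The share that rose goes from 48.5% in the shortest to 14.0% in the longest quintile, and 29 of 47 members are in the shortest.

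All 7 alpha ring genes rose with refeeding. Psma5, on chromosome 3 at 108059844 to 108082870, had the largest change of the ring: it stood at 21.3, 21.5, 37.4 and 34.5 FPKM and rose by 0.72 ± 0.07 (adjusted p = 5.9e-05). Psma2 was measured at 129, 123, 199.6 and 195 FPKM and Psma4 at 60.9, 57.7, 99 and 86.9, and these rose by 0.64 and 0.64. For both, each refed library was above each fasted one. Psma7, the most abundant of the ring, was at 184, 174, 281 and 261 FPKM and rose by 0.60 ± 0.05 (adjusted p = 4.43e-05). Psma3 was at 29.1, 26.8, 44.4 and 40.6 FPKM and rose by 0.59. The smallest changes of the ring belonged to Psma1 and Psma6, both with a larger difference in WT than in KR islets. Psma1 was at 97.9, 94.8, 150.3 and 124 FPKM, with a change of 0.61 in the WT pair and 0.39 in the KR pair. Psma6 was at 139, 134, 198 and 175 FPKM, with 0.51 and 0.38.

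The 4 structural genes of the beta ring rose by nearly the same amount, from 0.56 to 0.65. Psmb4 rose by 0.58 ± 0.05 (adjusted p = 5.84e-05). Psmb1 was at 182, 177, 272 and 268 FPKM, Psmb2 at 136, 128, 197 and 195 and Psmb3 at 48.0, 44.3, 75.4 and 70.8. In each of these genes the refed libraries lay close together and above both fasted ones.

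The constitutive catalytic genes rose too. Psmb5 encodes the chymotrypsin-like site and lies on chromosome 14 at 55232957 to 55236832; its level was 111, 99.7, 145 and 136 FPKM and it rose by 0.42 ± 0.06 (adjusted p = 0.000351). Psmb6, the caspase-like site, was at 132, 122, 184 and 171 FPKM and rose by 0.48 ± 0.05 (adjusted p = 0.000135). Psmb7, the trypsin-like site, was at 125, 128, 203 and 192 FPKM and rose by 0.63 ± 0.06 (adjusted p = 4.83e-05). For all 3 genes the refed libraries lay above the fasted ones in both genotypes.

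Among the immunoproteasome genes, Psmb10 and Psmb8 rose and Psmb9 did not pass. Psmb10, which takes the place of Psmb7, lies on chromosome 8 at 108459628 to 108462292; it was at 25.8, 27.1, 43.0 and 41.7 FPKM and rose by 0.66 ± 0.07 (adjusted p = 7.64e-05). Psmb8, which takes the place of Psmb5, was at 23.1, 23.8, 28.2 and 33.8 FPKM and rose by 0.38 ± 0.07 (adjusted p = 0.0023). Its highest value was in refed KR islets. Psmb9, which takes the place of Psmb6, was at 26.2, 30.5, 35.5 and 29.6 FPKM, with a fitted change of 0.19 ± 0.10 (adjusted p = 0.138). Here the groups overlapped: refed WT was the highest library, fasted WT the lowest, and the 2 KR libraries lay between and close together.

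Of the 6 ATPase genes of the cap, 5 rose and Psmc5 fell. Psmc1 was at 77.9, 74.8, 122 and 115 FPKM and rose by 0.63 ± 0.06 (adjusted p = 4.65e-05), the largest change of the ring. Psmc4 and Psmc3 rose by 0.49 and 0.46, with Psmc3, the lowest in level, at 65.0, 59.4, 90.8 and 80.5 FPKM. Psmc6 and Psmc2 rose less, by 0.27 and 0.24, and Psmc6 was at 72.1, 68.3, 85.9 and 83.9 FPKM. Psmc5, on chromosome 11 at 106117499 to 106124426, was the most abundant of the 6 and went the other way: its level was 149.8, 134, 129 and 115 FPKM and it fell with a change of -0.22 ± 0.05 (adjusted p = 0.00899). Both refed libraries lay below both fasted ones, and the WT and KR pairs gave -0.22 and -0.21. Psmc5 was lower with refeeding in the test without trend as well.

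The 11 other cap genes with a Psm name held the largest rise of the members and 1 fall. Psmd6, a subunit of the cap's lid on chromosome 14 at 14944699 to 14953418, was at 78.9, 80.3, 147 and 136 FPKM and rose by 0.82 ± 0.06 (adjusted p = 2.08e-05), which is 1.86-fold in the WT and 1.69-fold in the KR pair. Psmd12, also of the lid and on chromosome 11 at 107340842 to 107359350, was at 55.7, 55.6, 95.8 and 88.1 FPKM and rose by 0.71 ± 0.06 (adjusted p = 3.75e-05). Psmd1, a large scaffold subunit of the base, was at 43.3, 44.7, 74.3 and 70.4 FPKM and rose by 0.71 ± 0.06 (adjusted p = 4.51e-05); its deposited interval overlaps that of Htr2b. These 3 had the largest changes of the cap in each pair. Psmd14, the enzyme that takes ubiquitin off the substrate, was at 41.6, 38, 66.1 and 59.6 FPKM and rose by 0.64 ± 0.06 (adjusted p = 5.55e-05). Its partner in the lid, Psmd7, rose by 0.33. Psmd8 and Psmd13 rose by 0.54 and 0.52, with Psmd13 at 66.6, 61.6, 102 and 83.8 FPKM. Psmd2, the scaffold that docks ubiquitin-binding shuttles, rose by 0.37. Psmd4, a ubiquitin receptor of the cap, was at 81.4, 81.5, 99.9 and 98.6 FPKM and rose by 0.28 ± 0.06 (adjusted p = 0.00282), the smallest rise of the cap's non-ATPase genes.

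Psmd11, a lid subunit on chromosome 11 at 80242117 to 80285635, was at 35.5, 33.1, 32 and 27.0 FPKM and fell, with a change of -0.22 ± 0.07 (adjusted p = 0.0227); without trend it did not pass (adjusted p = 0.0596, where its adjusted p ran from 0.0158 to 0.238 over the 8 alternatives). Psmd3, another lid subunit, was at 69.8, 68.0, 66.4 and 56.2 FPKM, with a change of -0.17 ± 0.07 (adjusted p = 0.0562) that did not pass. For Psmd3 the WT pair gave -0.07 (95% counting interval -0.15 to 0.0037) and the KR pair -0.27 (95% counting interval -0.36 to -0.18), where the interval comes from the deposited bounds and covers counting error only. Both refed libraries lay below both fasted ones for each gene. Psmd11 and Psmd3 thus ran against the other 9 non-ATPase cap genes with a Psm name, all of which rose.

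The activators, which bind the barrel in place of the cap and open it without ubiquitin, moved in different directions. Psme1 and Psme2 encode the partners of the interferon-inducible PA28 ring and lie 5912 bases apart on chromosome 14. Psme1 was at 90.7, 97.6, 113 and 108 FPKM and rose by 0.23 ± 0.06 (adjusted p = 0.0129), and Psme2 was at 36.5, 36.8, 52.2 and 45.7 FPKM and rose by 0.40 ± 0.07 (adjusted p = 0.00133). Psme2 has a near-identical processed copy in the mouse genome, so its level is uncertain, and without trend Psme1 did not pass (adjusted p = 0.0556, range 0.00113 to 0.257 over the 8 alternatives). Psme3, which forms the related ring of the nucleus, lies on chromosome 11 at 101177565 to 101184844; it was at 47.5, 43.5, 39.2 and 38.5 FPKM and fell, with a change of -0.22 ± 0.06 (adjusted p = 0.0161). Its fall did not pass without trend either (adjusted p = 0.0504, range 0.00122 to 0.177). Psme2 stood at 40.2%, 37.7%, 46.4% and 42.2% of Psme1. Psme4, a large single-chain activator, was at 29.4, 28.2, 33.0 and 29.96 FPKM, with a change of 0.12 ± 0.06 (adjusted p = 0.133) that did not pass. Psmf1, known as an inhibitor of the core particle, was at 21.4, 21.6, 30.1 and 28.8 FPKM and rose by 0.44 ± 0.07 (adjusted p = 0.000656).

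The assembly chaperones split. Psmg1 and Psmg2 form the pair that starts the alpha ring, and both fell. Psmg2, on chromosome 18 at 67801253 to 67813816, was at 59.5, 48.3, 46.3 and 36.5 FPKM and had the lowest value of all members, -0.37 ± 0.06 (adjusted p = 0.000916). Psmg1 was at 49.6, 43.5, 42.1 and 37.2 FPKM and changed by -0.23 ± 0.06 (adjusted p = 0.0124). The falls of both were called without trend too. Psmg3 and Psmg4 form a further pair that acts on the alpha ring. Psmg3 was at 19.3, 15.2, 28.7 and 25.2 FPKM and rose by 0.62 ± 0.07 (adjusted p = 0.000149), and Psmg4 was at 71.5, 59.9, 78.8 and 64.8 FPKM, with a change of 0.12 ± 0.06 (adjusted p = 0.0952) that did not pass. The 3 chaperones of the cap's base with a Psm name differed likewise. Psmd10 was at 17.1, 14.8, 22.9 and 24.0 FPKM and rose by 0.53 ± 0.08 (adjusted p = 0.000673), Psmd5 rose by 0.32, and Psmd9 was at 17.2, 16.3, 16.3 and 16.1 FPKM with a change of -0.04 ± 0.07 (adjusted p = 0.611). Of the 7 chaperone genes 3 rose (27.7% of all genes), 2 fell (29.2% of all genes) and 2 did not pass. All 14 constitutive core genes rose. Pomp, the chaperone that completes the beta ring and no member by name, was at 150.2, 149, 244 and 242 FPKM and rose by 0.69 ± 0.05 (adjusted p = 2.41e-05).

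Summed over its genes, the core particle without the immunoproteasome subunits was at 1621, 1555, 2433 and 2275 FPKM, which is 50.1% higher after refeeding in WT and 46.4% higher in KR. The 17 cap genes with a Psm name summed to 1253, 1188, 1661 and 1520.0 FPKM, 32.5% and 27.9% higher. Shfm1 (312, 307, 411 and 380 FPKM) and Adrm1 (26.9, 25.5, 27.9 and 25.7) lack such a name and were left out. The sum is therefore not that of the whole cap. The sum of the 17 genes was 77.3%, 76.4%, 68.3% and 66.8% of that of the core, with 95% counting intervals of 76.2% to 78.5% in fasted WT and 67.3% to 69.3% in refed WT. The refed libraries held less of these 17 genes relative to core in both genotypes. The part of transcript length in this difference was not tested. Within the core, the alpha ring summed to 662, 632, 1010.2 and 918 FPKM, the structural beta genes to 591, 573, 891 and 858, and the constitutive catalytic genes to 368, 349.9, 532 and 499.8. The immunoproteasome genes added 75.1, 81.4, 107 and 105 FPKM. The ATPases summed to 548, 505, 661 and 609 FPKM, the assembly chaperones to 263, 228, 275 and 239 and the activators to 204, 206, 237 and 222. The chaperone sum differed more by genotype than by feeding state. This holds for the sum alone: of its 7 genes 3 rose (27.7% of all genes) and 2 fell (29.2%) with refeeding. Between genotypes 0 of the 7 were called (1.26% of all genes).

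Across the 47 members the WT and KR responses to refeeding, which share no library, were correlated with r = 0.91 (Pearson) and rho = 0.85 (Spearman), beside 0.78 and 0.87 over all genes; genes are not independent replicates. The response was smaller in KR for 31 of 47 members, against 56.1% of all genes. The largest gap was that of Psmb9, whose response was 0.42 in WT and -0.04 in KR, a difference of 0.46 (95% counting interval 0.16 to 0.77). At the other end, Psmd10 responded less in WT, by -0.26 (interval -0.51 to -0.0018). These differences have no replicate check and were not tested.

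Promoters of members that moved up and down are shown because proteasome genes are known to be switched on together, through an antioxidant-type element bound by Nfe2l1. Each is the 250 bases before the RefSeq start (build GRCm38.p6, on the gene's strand), and capitals mark TGACNNNGC, the core of that element, or CCGGAA, the core of ETS factor sites, on either strand. Psmd6 (chr14:14120946-14121195, minus strand), the largest rise, holds CCGGAA, and Psmd12 (chr11:107479278-107479527, plus strand) holds both. Psmb5 (chr14:54617996-54618245, minus strand) holds TGACNNNGC, and Psmc5 (chr11:106255935-106256184, plus strand), which fell, holds CCGGAA.
Psmd6: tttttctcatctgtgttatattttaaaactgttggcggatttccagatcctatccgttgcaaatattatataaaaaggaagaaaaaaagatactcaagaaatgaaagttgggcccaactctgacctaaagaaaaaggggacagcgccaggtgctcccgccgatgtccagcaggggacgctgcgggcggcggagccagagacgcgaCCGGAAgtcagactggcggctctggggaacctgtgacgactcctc
Psmd12: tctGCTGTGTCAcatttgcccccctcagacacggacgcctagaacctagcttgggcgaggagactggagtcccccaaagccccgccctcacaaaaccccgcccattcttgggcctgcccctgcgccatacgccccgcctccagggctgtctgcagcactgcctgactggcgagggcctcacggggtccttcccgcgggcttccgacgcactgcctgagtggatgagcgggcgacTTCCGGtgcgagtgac
Psmb5: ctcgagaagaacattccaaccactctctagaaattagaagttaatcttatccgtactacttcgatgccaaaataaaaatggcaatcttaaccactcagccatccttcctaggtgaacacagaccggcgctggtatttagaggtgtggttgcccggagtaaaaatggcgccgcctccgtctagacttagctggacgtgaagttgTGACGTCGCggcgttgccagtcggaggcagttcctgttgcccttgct
Psmc5: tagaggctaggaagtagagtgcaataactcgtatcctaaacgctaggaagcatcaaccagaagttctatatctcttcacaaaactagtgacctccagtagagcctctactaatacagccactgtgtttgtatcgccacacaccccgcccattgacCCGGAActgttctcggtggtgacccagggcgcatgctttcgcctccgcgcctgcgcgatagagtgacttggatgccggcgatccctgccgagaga

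In windows of 250 bases before to 50 after the start, 40 of the 47 members had a RefSeq entry. TGACNNNGC was in 6 of the 40 (Psmb5, Psmb6, Psmc6, Psmd12, Psmd9 and Psme4), which is 15.0%, beside 12.4% of all 32851 windows and 17.6% of the 8533 tested genes with a window. CCGGAA was in 21 of the 40, or 52.5%, beside 14.9% of all windows and 31.7% of the tested genes. CCGGAA is singled out after the shares were seen. It was in 15 of the 31 members that rose with refeeding and in 4 of the 4 that fell. GTAAACA, a forkhead core of the kind FoxO1 binds, was in 0 of the 40, beside 3.65% of all windows and 3.09% of the tested genes. The interferon-stimulated response element, searched by its core letters, was in 5 (Psmb3, Psmd4, Psmd9, Psme1 and Psmg4), beside 3.44% and 3.48%. For the other 6 of the 10 motifs searched, the share of all windows comes first and that of the tested genes second. They were CCAAT, in 14 (37.4% and 43.1%), GGAAGTG, in 8 (11% and 17.0%), CACGTG, in 4 (7.15% and 12.3%), TGATGCAA, in 1 (0.895% and 0.797%), TGACGTCA, in 0 (1.79% and 3.89%), and TGACTCAGC, in 0 (0.454% and 0.516%). TGACTCAGC is a special case of TGACNNNGC. A match is a description of these letters and no evidence of binding.

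Between genotypes no member passed the test: 0 of 47 were called higher in KR (0.602% of all genes) and 0 lower (0.661%), or 1.26% in either direction, with 12 members at an unadjusted p under 0.05 (16.4% of all genes). The median fitted difference was -0.09, beside -0.04 over all genes. In the fasted pair 35 members were lower in KR (59.7% of all genes) and 12 higher (40.2%). In the refed pair 45 were lower (63.9% of all genes) and 2 higher (36.0%), Psmb8 and Psmd10. In both pairs 34 were lower (42.7% of all genes) and 1 higher (18.9%). Rescaling to the median ratio of the libraries left 30 and 37 members lower (52.0% and 50.1% of all genes) and 23 in both (30.7% of all genes); it moved the calls over all genes from 72 higher and 79 lower to 86 and 51. No member was 1.5-fold apart between genotypes, where 0.627% of all genes were higher and 0.485% lower in the fasted pair and 0.736% and 0.686% in the refed pair. The differences were small: the middle of the distribution, from the lower to the upper quartile, was -0.14 to -0.05. A p above the threshold in 4 pooled libraries does not show that the genotypes were alike.

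**Figure D4:**
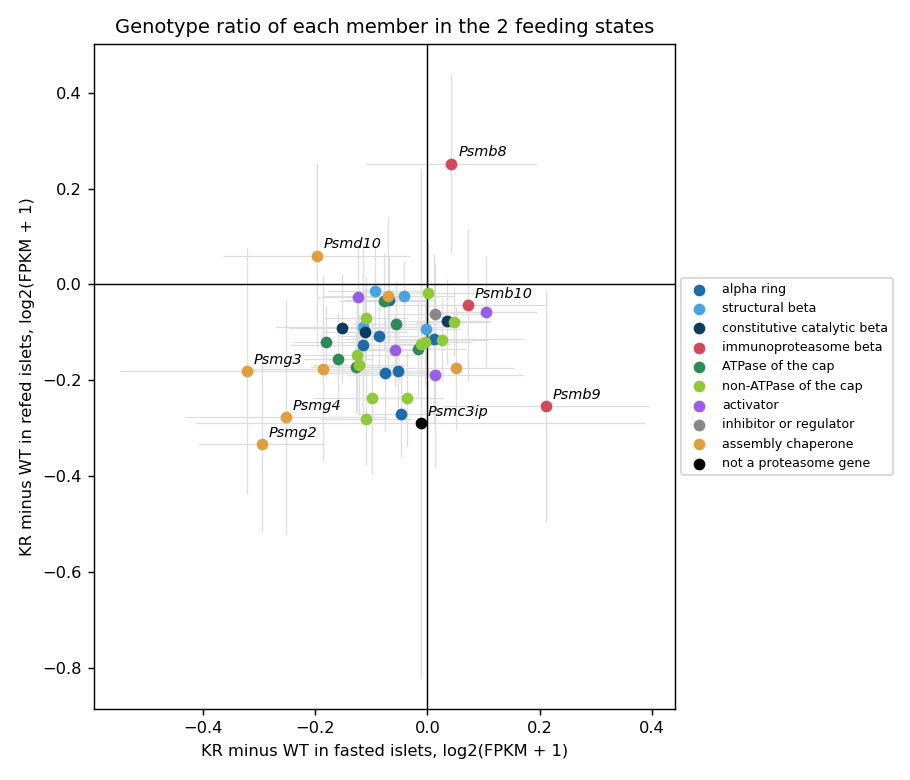
Log2(FPKM + 1) ratio of KR to WT for each member in the fasted (x) and refed pair (y), coloured by class, with 95% counting intervals as grey lines. Most points lie below and left of 0; Psmg2 is farthest to the lower left, Psmb8 is above 0 on both axes and Psmb9 is to the right and below.

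The 3 lowest fitted differences belonged to Psmg2, Psmg4 and Psmg3, chaperones of the alpha ring. Psmg2 had a fitted difference of -0.31 ± 0.06 (adjusted p = 0.0502), with -0.30 (95% counting interval -0.41 to -0.18) in the fasted and -0.33 (95% counting interval -0.52 to -0.15) in the refed pair. It passed in 4 of the 8 alternatives, with adjusted p from 0.0107 to 0.575. Psmg4 was at -0.27 ± 0.06 (adjusted p = 0.0734) and passed in 1 alternative, and Psmg3 was at -0.25 ± 0.07 (adjusted p = 0.145). Psmg1, the remaining chaperone of that ring, was at -0.18 ± 0.06 (adjusted p = 0.199), less far from 0 than the cap subunit Psmd13, at -0.19. All 4 Psmg genes were lower in KR in both feeding states, as were 34 of the 47 members and 42.7% of all genes. Refed KR islets had the lowest Psmg2 and Psmg1 levels of the 4 libraries. The chaperone genes together differed by -13.3% (KR against WT, summed FPKM) in fasted and -13.1% in refed islets. Those of the cap's base had smaller fitted differences, -0.06 for Psmd5, -0.05 for Psmd9 and -0.07 for Psmd10, none called. Psmd5 was 3.8% higher in KR in the fasted pair and Psmd10 4.5% higher in the refed pair, so the sum does not describe each gene.

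Among core and cap genes no genotype difference passed either. In the alpha ring the values ran from Psma1, at -0.16 ± 0.07 (adjusted p = 0.288), to Psma2, at -0.05 ± 0.05 (adjusted p = 0.708), and in the structural beta genes from Psmb3, at -0.10 ± 0.06 (adjusted p = 0.439), to Psmb1, at -0.03 ± 0.05 (adjusted p = 0.819). Psmb1 turned to 0.0095 after rescaling. Among the ATPases Psmc5 was the lowest, at -0.16 ± 0.05 (adjusted p = 0.212), and Psmc6 the highest, at -0.06 ± 0.06 (adjusted p = 0.697). In the rest of the cap Psmd13 was at -0.19 ± 0.06 (adjusted p = 0.191) and Psmd4 at -0.01 ± 0.06 (adjusted p = 0.957). The activators ran from Psme4, at -0.10 ± 0.06 (adjusted p = 0.51), to Psme1, at 0.02 ± 0.06 (adjusted p = 0.897).

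The fitted differences of the immunoproteasome genes were near or above 0, and none passed. Psmb8 was at 0.15 ± 0.07 (adjusted p = 0.367), the highest fitted difference of the members, with 0.04 (95% counting interval -0.11 to 0.20) in the fasted and 0.25 (95% counting interval 0.07 to 0.44) in the refed pair. Psmb10 was at 0.01 ± 0.07 (adjusted p = 0.945). Psmb9 had 0.21 (95% counting interval 0.03 to 0.39) in the fasted and -0.25 (95% counting interval -0.50 to -0.01) in the refed pair, with a fitted value of -0.02 ± 0.10 (adjusted p = 0.945). Psmb9 and Psmb8 lie 10864 bases apart in the class II region of chromosome 17, Psmb9 at 34319044 to 34324275 and Psmb8 at 34335140 to 34338399. Neighbours in position thus had opposite genotype ratios in the refed pair.

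Relative to the constitutive subunit whose place it takes, Psmb8 stood at 20.8%, 23.9%, 19.4% and 24.8% of Psmb5. The KR value was the higher one in both feeding states, with counting intervals that overlapped in the fasted pair but not in the refed pair. Psmb9 stood at 19.9%, 25.1%, 19.3% and 17.3% of Psmb6, highest in fasted KR and lowest in refed KR. Psmb10 stood at 20.6%, 21.1%, 21.2% and 21.7% of Psmb7, with all 4 counting intervals overlapping. Summed, the 3 immunoproteasome genes were at 20.4%, 23.3%, 20.1% and 21.0% of the 3 constitutive catalytic genes. The interval in fasted KR, 22.1% to 24.5%, lay above that in fasted WT, 19.3% to 21.5%, whereas those of the refed libraries overlapped. Summed fragments in place of FPKM gave 24.0%, 26.9%, 23.8% and 25.5%, in the same order over libraries.

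**Figure D5:**
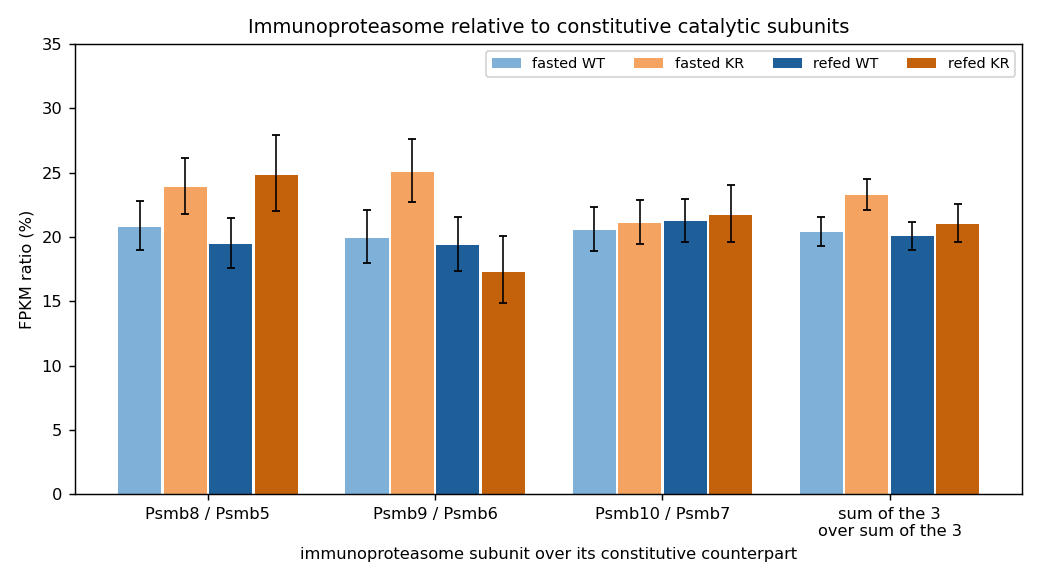
FPKM of each immunoproteasome gene as a percent of its constitutive counterpart, and of the 3 summed, in the 4 libraries, with 95% counting intervals. The bars lie between 17.3% and 25.1%, and both ends belong to Psmb9 over Psmb6 in KR islets.

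Immune cells carry the immunoproteasome, and some of their markers differed by genotype. Among the 17 measured genes of macrophages and antigen presenting cells, 3 were higher in KR (0.602% of all genes) and 0 lower (0.661%). The 3 were the class II genes H2-Aa, by 0.77, and H2-Ab1, by 0.65, and also Cd74, by 0.53. The other 14 did not pass, and the list ran from Lyz2, at -0.22 ± 0.05 (adjusted p = 0.107), to H2-Aa, with Cd68 at -0.19 ± 0.06 (adjusted p = 0.206) and a median of 0.19. Of 10 lymphocyte genes 2 had a mean of at least 1 FPKM over the libraries, Cd79a and Cd52. Both were higher in KR (0.602% of all genes), and the list summed to 10.4, 24.3, 11 and 15.8 FPKM. The 10 endothelial genes listed summed to 36.8, 26.6, 23.2 and 20.3 FPKM. Of the 7 tested 0 were called between genotypes, with a median of -0.31. The acinar list summed to 35.3, 40.9, 48.5 and 61.4 FPKM, nearly all of it Cela1. The part of such cells in the Psmb8 and Psmb9 values was not tested.

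Genes around the proteasome are given list by list, to be read against the 27.7% of all genes that rose and the 29.2% that fell. Ubiquitin and E1 genes were among those that rose with refeeding. Rps27a, which encodes ubiquitin fused to a ribosomal protein, rose by 0.50 and Uba6, an enzyme that activates ubiquitin, by 0.49. Of 17 shuttles and proteasome-associated factors 4 rose, 8 fell and 5 did not pass. Besides Pomp, the deubiquitinase Usp14 rose, by 0.43. The ubiquitin sensor Zfand5 fell, at -0.61, and so did the shuttle Ubqln4, at -0.52. Of 11 genes of the p97 segregase, which pulls ubiquitin-tagged proteins out of complexes, 2 rose and 5 fell. Vcp, p97 itself, was at 51.9, 52.9, 84.1 and 75.8 FPKM and rose by 0.60 ± 0.07 (adjusted p = 0.000119), as did its cofactor Nsfl1c, by 0.33. Its partners Faf1 and Ube4b had falls, at -0.43 and -0.38.

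The list for control through Nfe2l1, the factor that raises proteasome genes when the proteasome is short, held 1 gene that rose and 6 that fell among 10 measured. Nfe2l1 itself had no valid value in every library and is not reported. Mafg, its small partner factor, was at 25.4, 20.6, 10.3 and 11.6 FPKM and fell with a change of -1.0 ± 0.10 (adjusted p = 8.53e-05), and Sel1l, of the machinery that draws proteins out of the endoplasmic reticulum, was at -0.98. Nfe2l2, a related factor, rose by 0.25. Of 11 class I peptide loading genes 4 rose with refeeding and 3 fell: Tapbpl and B2m rose by 0.43 and 0.30, and Canx and Tap2 fell, at -0.35 and -0.31. Of 15 interferon response genes 7 rose and 1 fell. The ubiquitin-like protease gene Usp18 rose by 1.11 and Ifit1 by 0.89, and Irf8, a factor of myeloid and B cells, fell at -0.54.

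Between genotypes B2m, the light chain of class I molecules, was the single gene called in these 6 lists, where 1.26% of all genes were called in either direction. It was at 239, 283, 279 and 369 FPKM and was higher in KR by 0.32 ± 0.06 (adjusted p = 0.041). Tap1 and Tap2, the peptide transporters encoded beside Psmb9 and Psmb8 and set here for that position, were at -0.03 ± 0.08 (adjusted p = 0.885) and -0.27 ± 0.08 (adjusted p = 0.177). The interferon response list had a median of 0.03, from -0.44 to 0.29, with 0 of 15 called. The shuttles had a median of -0.10 and the p97 list -0.05, beside -0.04 over all genes. Psmc3ip, the member by name that is no proteasome gene, was at 2.71, 2.68, 3.90 and 3.01 FPKM and passed in neither contrast, with 0.26 ± 0.12 (adjusted p = 0.0879) for feeding.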

How the data were processed

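The submitters' processing notes list bcl2fastq 1.8.4, TopHat2 2.0.4 and the mouse build mm9. The authors deposited 1 table per library with FPKM, its lower and upper bound and a status, per the file headers; what program and annotation gave them is not stated there. Rows of a symbol were summed, and 189 symbols without a valid status in every library were left out. Genes with a mean of at least 1 FPKM entered a fit with limma (version 3.58.1, under R 4.3.3) on log2(FPKM + 1), with a mean-variance trend and an additive model of genotype and feeding state. It has 1 residual degree of freedom per gene, counts the interaction as error and borrows a prior worth 7.58 degrees of freedom from all genes, which can understate the error of single genes. It was tested on simulated data whose noise was taken from this same fit, so that test cannot show whether the error is understated. Counting intervals use the bounds, taken as 2 standard errors above and below the value, and implied fragments are the squared ratio of FPKM to its standard error; these summed to 11080602 in refed KR and up to 26418494 in fasted WT. Deposited starts were taken to count from 0 and are written counted from 1: for 478 of 486 microRNA genes the end minus the start equalled the RefSeq length. Promoters are RefSeq's. Members and lists were chosen with earlier results of these data known. Named with full values are the catalytic pairs, the extremes of each class in level and in each contrast, and members at least 1.5-fold apart in a pair; Tap1 was added; of each related list, genotype calls and the 2 largest feeding changes each way. In the list of ubiquitin and E1 genes 1 item is not reported here, and no count is given for that list. In all 8 settings were varied. Strand is not stated, so overlapping genes (Psma3, Psma4, Psmb5, Psmc3ip, Psmd1 and Psme1) cannot be told apart where they overlap.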

Additional observations from a re-analysis of the deposited data

Results flagged for a closer look

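Psmb9 was flagged because its KR to WT ratio pointed one way in fasted and the other way in refed islets. The log2 ratio was 0.21 (95% counting interval 0.03 to 0.39) in the fasted pair and -0.25 (95% counting interval -0.50 to -0.01) in the refed pair. Each group is 1 pooled library, and the difference between the pairs was not tested. No other member had ratios on both sides of 0 that both exceeded counting error.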

How the results depend on the processing

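The feeding counts of 36 higher and 5 lower held, within 1.5 times, under the 8 alternatives except in 3 values. With no filter on low values 0 members were called in each direction, where 0 of all 23046 genes were called. Without trend 3 members were lower, Psmc5, Psmg1 and Psmg2. The genotype count of 0 lower members became 1 with a pseudocount of 0.1, with a robust prior and with limma-voom on the implied fragments, Psmg2 each time, and 2 with a mean FPKM of at least 5, Psmg2 and Psmg4. The ratio of immunoproteasome to constitutive catalytic genes moved from 20.4%, 23.3%, 20.1% and 21.0% to 24.0%, 26.9%, 23.8% and 25.5% with summed fragments, which weight each gene by its length. Genotype differences near 0, none of them called, changed sign: with the median of ratios Psmb1 became 0.0095, Psmb7 0.020, Psmb9 0.019, Psmd1 0.026, Psmd4 0.032 and Psmf1 0.016, and with limma-voom Psmb7 became 0.0017, Psmb9 0.049, Psmd1 0.0067 and Psmd4 0.012. The cause of these changes was not tested. The other 96 values of counts, medians and sums kept their side. No library could be left out, because the additive model on 3 libraries has no residual degree of freedom. No paired analysis was possible because each group holds 1 library and the labels carry no replicate numbers. Depth limits the refed KR library most, the shallowest of the 4.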
